A study of Homo sapiens with 18 samples.

Results

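Mitochondrial rRNA and the nuclear machinery that makes and keeps mitochondrial RNA were followed, as 10 genes, through icaritin treatment of 3 NK/T cell lymphoma lines. Mitochondrial DNA encodes 2 of them, the ribosomal RNA genes RNR1 (12S) and RNR2 (16S), and nuclear chromosomes encode the other 8, POLRMT, TFAM, TFB1M, TFB2M, TEFM, LRPPRC, SLIRP and PNPT1. The 10 were taken from 21662 genes listed over all libraries, and all 10 were among the 14396 with enough counts to be tested. RNR1 and RNR2 were chosen by their higher counts after icaritin in these same libraries, so their difference between icaritin and DMSO is described here and not tested. The nuclear genes were listed by function, but with earlier results of these data known. Their p-values and shares are therefore not those of a list drawn without sight of the data. The question was whether their RNA moved with the rRNA.

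SNT-8, SNK-10 and SNT-16 are labelled as wild type, and cells of every line were treated for 12 h with icaritin, a prenylated flavonoid from Epimedium plants, or with the solvent DMSO. Each of the 6 groups held 3 libraries, made from total RNA. The sources used here give neither the dose nor whether poly(A) RNA was selected or rRNA removed. Replicates are not said to be separate cultures, and the p-values therefore cover only variation among these libraries, which may be technical.

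Mitochondrial DNA is transcribed by a dedicated single-subunit RNA polymerase, POLRMT, which needs TFAM to bend and package the promoter DNA and TFB2M to open it. Long transcripts that run across the rRNA, mRNA and tRNA genes are then cut, modified and degraded by proteins that the nucleus encodes and the cell imports. The rRNAs form the core of the mitochondrial ribosome, which makes only membrane subunits of the respiratory chain and the ATP synthase.

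A library held between 9526431 and 10100453 expected counts. The NK and T cell markers fixed for checking the lines were all tested, 12 of 12. Over all lines they summed to 2589 to 4456 CPM (counts put on a common library size with TMM factors) in icaritin libraries. In DMSO libraries the sum was 2853 to 4846 CPM. Within each line it was lower with icaritin without overlap, at 3793 to 4131 against 4290 to 4519 CPM with DMSO in SNT-8. In SNK-10 it was 2589 to 2701 against 2853 to 2950 CPM, and in SNT-16 4239 to 4456 against 4718 to 4846 CPM. Of 6 B and plasma cell markers, 5 lay under 1 CPM in every library. The other, PAX5, had 7.18 to 8.45 CPM with icaritin and 12.7 to 15.4 CPM with DMSO in SNT-8. In SNT-16 it had 9.86 to 10.9 CPM with icaritin and 13.6 to 14.4 CPM with DMSO. Its SNK-10 values were 1.31 to 2.27 CPM with icaritin and 1.57 to 2.75 CPM with DMSO. Myeloid markers summed to 44.2 to 62.1 CPM with icaritin and 41.7 to 53.1 CPM with DMSO, and epithelial markers to 4.73 to 9.45 CPM with icaritin and 4.75 to 7.54 CPM with DMSO. Fibroblast markers summed to 9.57 to 16.7 CPM with icaritin and 3.26 to 12.1 CPM with DMSO.

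RNR1 and RNR2 had more RNA after icaritin in each line, and the difference was greatest in SNK-10. RNR1 (NCBI Gene 4549) is the 12S rRNA of the small mitoribosomal subunit. It had 1379.9, 1851 and 1389 CPM in the 3 icaritin libraries of SNT-8, against 891, 1013 and 906 CPM in the 3 DMSO libraries. The SNK-10 libraries held 4592, 4382 and 5104 CPM with icaritin, against 1412, 1376 and 1368 CPM with DMSO. In SNT-16 it had 1262, 1241 and 1251 CPM with icaritin, against 744, 688 and 728 CPM with DMSO. Every icaritin library lay above every DMSO library of its line, and the icaritin libraries of SNK-10 lay far above all others. The log2 difference was 0.72 in SNT-8, 1.76 in SNK-10 and 0.80 in SNT-16, which is 1.64-fold, 3.39-fold and 1.74-fold. As a share of all counts, RNR1 took 0.141% to 0.186% in SNT-8 with icaritin and 0.0877% to 0.1002% with DMSO, and 0.427% to 0.475% in SNK-10 with icaritin and 0.134% to 0.138% with DMSO. In SNT-16 its share was 0.128% to 0.133% with icaritin and 0.0701% to 0.0759% with DMSO.

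RNR2 (NCBI Gene 4550), the 16S rRNA of the large subunit, had 21691, 27690.1 and 20469 CPM with icaritin in SNT-8, against 13196, 13422 and 12025 CPM with DMSO. In SNK-10 it had 50445, 47123 and 54999.7 CPM with icaritin, against 15924, 15359 and 15271 CPM with DMSO. In SNT-16 it had 16814, 16676 and 16093 CPM with icaritin, against 8671, 8145 and 8723 CPM with DMSO. Here too no icaritin library overlapped the DMSO libraries of its line, and replicate 2 was the highest of the SNT-8 icaritin libraries for both rRNAs. The log2 difference of RNR2 was 0.85 in SNT-8, 1.71 in SNK-10 and 0.96 in SNT-16, which is 1.81-fold, 3.28-fold and 1.94-fold. Across all genes tested, 24.0% passed the threshold as higher in SNT-8, 24.4% in SNK-10 and 21.2% in SNT-16, and the share whose icaritin libraries all lay above the DMSO libraries was 26.5%, 27.8% and 26.6% in that order of lines. These are levels in bulk RNA relative to all other RNA counted, so more rRNA per mitochondrion, more mitochondria per cell and less of other RNA cannot be told apart.

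**Figure D1:**
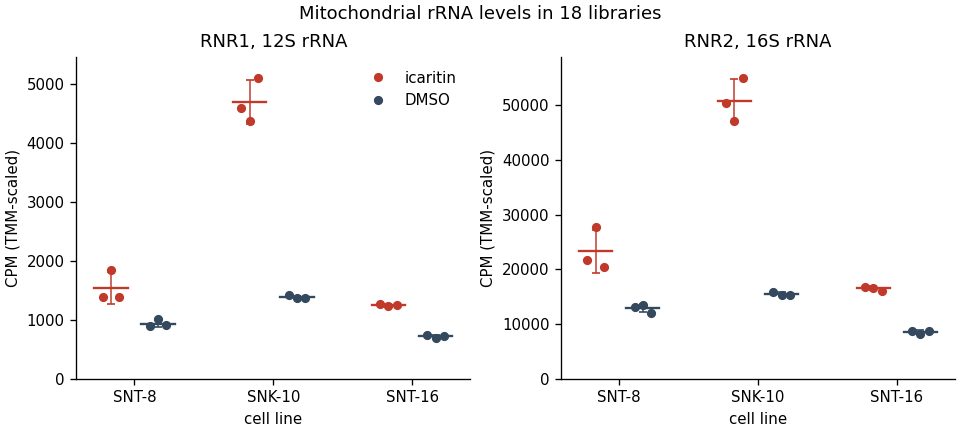
TMM-scaled CPM of RNR1 (left) and RNR2 (right) in the 3 lines on the horizontal axis, icaritin in red and DMSO in dark blue; points are libraries, horizontal bars are means of 3 and vertical bars are SD. The SNK-10 icaritin libraries sit at 4382 to 5104 CPM for RNR1 and 47123 to 54999.7 CPM for RNR2, above all other libraries.

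The 2 rRNAs lie next to each other on the same strand of mitochondrial DNA and are cut from shared transcripts. Per length, RNR2 had more counts than RNR1 in every library, and the part of library preparation in this difference was not tested. Its FPKM was 9.12 ± 0.311 times that of RNR1 in SNT-8 with icaritin and 8.30 ± 0.539 times with DMSO (SD, n = 3 each). The ratio of FPKM was 6.53 ± 0.0767 in SNK-10 with icaritin and 6.75 ± 0.0406 with DMSO, and 7.96 ± 0.182 in SNT-16 with icaritin and 7.13 ± 0.101 with DMSO. Icaritin libraries lay above DMSO libraries in SNT-16, below them in SNK-10, and overlapped them in SNT-8, so the ratio did not move the same way in the 3 lines. RNR1 averaged 1681 FPKM with icaritin and 991 FPKM with DMSO in SNT-8, 4812 FPKM with icaritin and 1455 FPKM with DMSO in SNK-10, and 1389 FPKM with icaritin and 786 FPKM with DMSO in SNT-16. RNR2 averaged 15313 FPKM with icaritin and 8213 FPKM with DMSO in SNT-8, 31430.0 FPKM with icaritin and 9819 FPKM with DMSO in SNK-10, and 11058 FPKM with icaritin and 5602 FPKM with DMSO in SNT-16.

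Nuclear DNA holds old copies of the 16S gene, and reads of RNR2 could be assigned to a copy or the reverse. The copy with most counts, MTRNR2L3, had 14.9 to 18.6 CPM with icaritin and 10.8 to 11.6 CPM with DMSO in SNT-8. The SNK-10 values were 38.6 to 48.2 CPM with icaritin and 11.7 to 14.6 CPM with DMSO, and in SNT-16 it had 10.9 to 13.5 CPM with icaritin and 8.01 to 9.06 CPM with DMSO. Counts assigned to MTRNR2L3 were higher with icaritin in all 3 lines. The log2 fold changes were 0.55 in SNT-8, 1.66 in SNK-10 and 0.53 in SNT-16. They are given without p-values, since these counts may hold RNR2 reads and a rise of the copy itself cannot be told apart. Over all libraries MTRNR2L3 had between 0.547 and 1.09 counts for every 1000 counts of RNR2. In SNT-16 this was 0.680 to 0.810 with icaritin and 0.919 to 1.09 with DMSO, without overlap. The groups overlapped in SNT-8 and SNK-10. All listed RNR2-like copies together came to 0.0718% to 0.183% of the RNR2 counts. The GENCODE release 29 transcripts of RNR2 (1559 bases) and MTRNR2L3 (1539 bases) aligned over 1492 bases, of which 84.5% were identical, and the longest identical run was 45 bases. A window of 60 bases, positions 227 to 286 of each transcript, shows how close they are, at the median of 7 differences per window; capitals mark the bases that differ.
RNR2: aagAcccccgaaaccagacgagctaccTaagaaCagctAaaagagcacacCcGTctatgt
MTRNR2L3: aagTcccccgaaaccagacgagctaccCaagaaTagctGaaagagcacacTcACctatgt

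**Figure D2:**
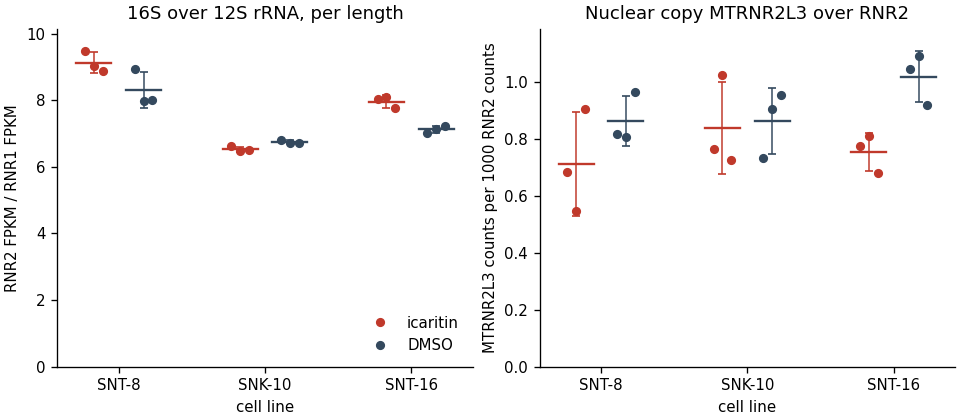
Left, RNR2 FPKM divided by RNR1 FPKM; right, MTRNR2L3 counts per 1000 RNR2 counts; lines on the horizontal axis, icaritin in red and DMSO in dark blue, points are libraries, with mean and SD of 3. The rRNA ratio is 9.12 with icaritin and 8.30 with DMSO in SNT-8, 6.53 and 6.75 in SNK-10, and 7.96 and 7.13 in SNT-16. Over all libraries the copy lies between 0.547 and 1.09 per 1000, and in SNT-16 it is lower with icaritin without overlap.

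Mitochondrial mRNAs, and nuclear-encoded RNAs that usually lack a stable poly(A) tail, were looked at beside the rRNA. Of the 13 mitochondrially encoded mRNAs, 0 were listed in these files, and they are not analysed here. RNA45SN5, a copy of the nuclear 45S rRNA precursor with near-identical repeats, had at most 1.84 CPM in any library. It rose in SNT-8 (log2 fold change 1.92, adjusted p = 0.0169), SNK-10 (1.85, adjusted p = 0.00323) and SNT-16 (1.74, adjusted p = 0.0208). The p-values here are from edgeR's quasi-likelihood test with Benjamini-Hochberg adjustment over all genes. The other tested nuclear rRNA gene, RNA28SN5, reached 5.11 CPM and rose in SNT-8 (1.09, adjusted p = 0.00490), while it had -0.42 in SNK-10 (adjusted p = 0.375) and 0.51 in SNT-16 (adjusted p = 0.242). Listed nuclear rRNA genes together summed to 2.58 to 6.72 CPM with icaritin and 1.21 to 3.46 CPM with DMSO. A list of 22 replication histones and small noncoding RNAs summed to 18.1 to 18.7 CPM with icaritin and 31.3 to 39.8 CPM with DMSO in SNT-8, to 27.8 to 31.5 CPM with icaritin and 49.5 to 58.9 CPM with DMSO in SNK-10, and to 18.7 to 33.33 CPM with icaritin and 33.26 to 38.1 CPM with DMSO in SNT-16. The groups overlapped in SNT-16 only, and 15 of the 22 lay under 1 CPM in every library. Among its 6 tested members the linker histone gene H1-2 fell in each line, with log2 fold changes of -1.27, -1.19 and -1.39 in SNT-8, SNK-10 and SNT-16, and so did H2BC5 and H2BC11. H4C3 fell in SNT-8 (-1.94) and SNK-10 (-1.08) and had -1.10 in SNT-16 (adjusted p = 0.0561). The signal recognition particle RNA genes RN7SL1 (-0.85, -0.30 and 0.73) and RN7SL2 (-0.26, -0.07 and 0.98) passed in no line (lowest adjusted p = 0.0554). These lists went in different directions, and the part of library preparation in the rRNA values was not tested.

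Of the 8 nuclear genes, 5 fell after icaritin in SNT-8, 6 in SNK-10 and 5 in SNT-16, and 0 rose in any line. POLRMT, TFAM, TFB2M, SLIRP and PNPT1 fell in all 3 lines, TFB1M fell in SNK-10, and LRPPRC and TEFM passed the threshold in no line. The test was edgeR's quasi-likelihood test with Benjamini-Hochberg adjustment over 14396 genes and a threshold of 0.05. The count of rises was also 0 with DESeq2 and with limma on FPKM. At an unadjusted p under 0.05 the counts were 6, 6 and 5 in SNT-8, SNK-10 and SNT-16. Of all genes tested, 25.0% passed as lower in SNT-8, 24.0% in SNK-10 and 20.8% in SNT-16, and 49.0%, 48.4% and 42.0% passed in either direction. All genes that fell also had icaritin libraries wholly below DMSO libraries, which held for 27.6% of all genes in SNT-8, 27.4% in SNK-10 and 26.1% in SNT-16. POLRMT, TFAM, TFB2M, SLIRP and PNPT1 are among the 14.3% of genes that passed as lower in each line. The median log2 fold change of the 8 was -0.44 in SNT-8, -0.46 in SNK-10 and -0.39 in SNT-16, beside medians over all genes of 0.02, 0.01 and 0.02.

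**Figure D3:**
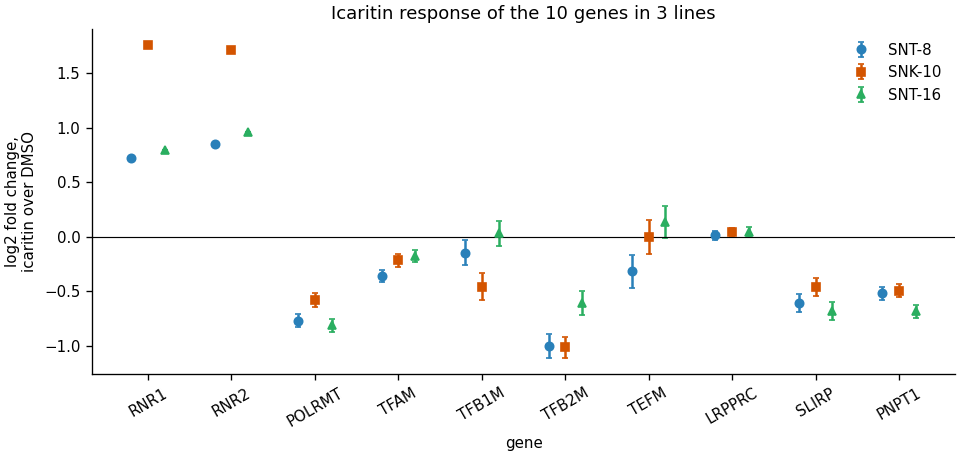
Log2 fold change of icaritin over DMSO for the 10 genes on the horizontal axis, with circles for SNT-8, squares for SNK-10 and triangles for SNT-16; error bars are SE of the edgeR fit, and RNR1 and RNR2 carry none because they were not tested. The rRNA points lie between 0.72 and 1.76, while POLRMT, TFAM, TFB2M, SLIRP and PNPT1 lie below 0 in all 3 lines.

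The polymerase gene POLRMT (NCBI Gene 5442) had 55.3, 53.7 and 59.4 CPM with icaritin in SNT-8, against 91.7, 98.3 and 97.1 CPM with DMSO. Libraries of SNK-10 held 58.5, 60.6 and 53.4 CPM with icaritin, against 85.6, 87.9 and 84.9 CPM with DMSO. In SNT-16 it had 53.4, 51.9 and 57.7 CPM with icaritin, against 95.6, 101 and 89.2 CPM with DMSO. The groups were far apart in each line, and the icaritin libraries of the 3 lines lay at much the same level. POLRMT fell by 0.77 on the log2 scale in SNT-8 (SE 0.0610, adjusted p = 1.40e-13), by 0.58 in SNK-10 (SE 0.0624, adjusted p = 3.68e-10) and by 0.81 in SNT-16 (SE 0.0612, adjusted p = 5.00e-14).

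TFB2M (NCBI Gene 64216), the factor that opens the promoter with POLRMT, had 14.1, 12.4 and 13.3 CPM with icaritin in SNT-8, against 30.3, 22.4 and 27.0 CPM with DMSO. In SNK-10 it had 23.2, 18.7 and 21.1 CPM with icaritin, against 43.1, 43.6 and 40.3 CPM with DMSO. In SNT-16 it had 15.2, 12.7 and 17.3 CPM with icaritin, against 22.3, 23.1 and 23.4 CPM with DMSO. No groups overlapped within a line, though the icaritin libraries of SNK-10 reached the level of DMSO libraries of the SNT lines. TFB2M fell by 1.00 on the log2 scale in SNT-8 (SE 0.109, adjusted p = 4.97e-10), by 1.01 in SNK-10 (SE 0.0968, adjusted p = 2.14e-11) and by 0.61 in SNT-16 (SE 0.109, adjusted p = 1.37e-05).

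TFAM (NCBI Gene 7019), which both starts transcription and packs mitochondrial DNA into nucleoids, changed less. It had 103, 113 and 100.4 CPM with icaritin in SNT-8, against 139, 136 and 131 CPM with DMSO. In SNK-10 it had 89.5, 86.3 and 97.2 CPM with icaritin, against 109.8, 103 and 104 CPM with DMSO, and in SNT-16 it had 112, 112 and 118 CPM with icaritin, against 130.5, 123 and 133 CPM with DMSO. The groups were close but did not overlap in any line. TFAM fell by 0.36 on the log2 scale in SNT-8 (SE 0.0537, adjusted p = 4.35e-07), by 0.22 in SNK-10 (SE 0.0563, adjusted p = 0.00145) and by 0.18 in SNT-16 (SE 0.0535, adjusted p = 0.00615).

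TEFM (NCBI Gene 79736), the elongation factor that lets POLRMT run to the end of the long transcripts, was the least abundant of the 8 in CPM. It had 5.18, 5.51 and 7.07 CPM with icaritin in SNT-8, against 8.29, 7.49 and 6.40 CPM with DMSO, and the groups overlapped. Its log2 fold change was -0.32 in SNT-8 (SE 0.152, adjusted p = 0.0825), -0.0019 in SNK-10 (SE 0.154, adjusted p = 0.995) and 0.14 in SNT-16 (SE 0.146, adjusted p = 0.494), none past the threshold. The SNT-8 value passed without DMSO replicate 3 (adjusted p = 0.0416) or without icaritin replicate 3 (adjusted p = 0.0232), again by edgeR's quasi-likelihood test.

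TFB1M (NCBI Gene 51106) is related to TFB2M but acts as a methyltransferase of the 12S rRNA. It adds methyl groups to a pair of neighbouring adenines near the 3′ end of the molecule, shown here in capitals in the last 40 bases of RNR1 (positions 915 to 954 of the GENCODE release 29 transcript, adenines 936 and 937).
RNR1: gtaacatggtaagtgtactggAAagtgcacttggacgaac
TFB1M had 10.5, 10.1 and 11.7 CPM with icaritin in SNK-10, against 14.5, 14.7 and 15.2 CPM with DMSO, without overlap. It fell there by 0.46 on the log2 scale (SE 0.123, adjusted p = 0.00203). In SNT-8 it had 16.2, 12.3 and 13 CPM with icaritin, against 13.3, 15.4 and 17.2 CPM with DMSO (log2 fold change -0.15, SE 0.115, adjusted p = 0.297). In SNT-16 it had 14.1, 16.5 and 16.9 CPM with icaritin, against 15.5, 16.4 and 14.5 CPM with DMSO (0.03, SE 0.112, adjusted p = 0.861). Both SNT lines had overlapping groups. In the annotation TFB1M overlaps TIAM2, which averaged 6.94 CPM and rose in all 3 lines with log2 fold changes of 0.76, 0.94 and 0.77 in SNT-8, SNK-10 and SNT-16. Whether counting used strand is not given in the sources used here, so the split of reads between TFB1M and TIAM2 is uncertain.

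LRPPRC and SLIRP form a complex that binds mitochondrial mRNAs and keeps them from decay; it is not known to stabilise the rRNAs. LRPPRC (NCBI Gene 10128) had 394, 407 and 401 CPM with icaritin in SNT-8, against 396, 400.2 and 396 CPM with DMSO. Its other levels were 380.0, 379 and 433 CPM with icaritin in SNK-10, against 379, 388 and 393 CPM with DMSO, and 381, 394 and 387 CPM with icaritin in SNT-16, against 379, 367 and 384 CPM with DMSO. The groups overlapped in each line and covered a narrow range. The log2 fold changes were 0.01 (SE 0.0450, adjusted p = 0.861), 0.04 (SE 0.0452, adjusted p = 0.510) and 0.04 (SE 0.0451, adjusted p = 0.512) in SNT-8, SNK-10 and SNT-16 by edgeR.

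SLIRP (NCBI Gene 81892), the small RNA-binding partner, fell in every line. It had 21.1, 21.2 and 20.8 CPM with icaritin in SNT-8, against 29.8, 33.4 and 33.0 CPM with DMSO. In SNK-10 it had 20.5, 23.0 and 22.3 CPM with icaritin, against 32.0, 28.2 and 30.5 CPM with DMSO, and in SNT-16 it had 18.4, 20.7 and 20.7 CPM with icaritin, against 32.9, 32.8 and 30.4 CPM with DMSO. All icaritin libraries of the 3 lines lay below all DMSO libraries. By edgeR the log2 difference was -0.61 in SNT-8 (SE 0.0828, adjusted p = 7.77e-08), -0.46 in SNK-10 (SE 0.0846, adjusted p = 1.60e-05) and -0.68 in SNT-16 (SE 0.0833, adjusted p = 9.27e-09). A difference in response between SLIRP and LRPPRC was not tested.

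PNPT1 (NCBI Gene 87178) encodes polynucleotide phosphorylase, the exoribonuclease that with the helicase SUPV3L1 degrades mitochondrial RNA. It had 80.4, 85.7 and 75.5 CPM with icaritin in SNT-8, against 120.2, 111 and 115 CPM with DMSO. In SNK-10 it had 75.3, 71.0 and 78.0 CPM with icaritin, against 96.3, 108 and 112 CPM with DMSO, and in SNT-16 it had 77.0, 81.3 and 73.6 CPM with icaritin, against 123, 127 and 122 CPM with DMSO. Again no icaritin library of any line reached a DMSO library. The log2 fold change was -0.52 in SNT-8 (SE 0.0585, adjusted p = 1.10e-09), -0.50 in SNK-10 (SE 0.0603, adjusted p = 6.64e-09) and -0.68 in SNT-16 (SE 0.0583, adjusted p = 1.59e-12).

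**Figure D4:**
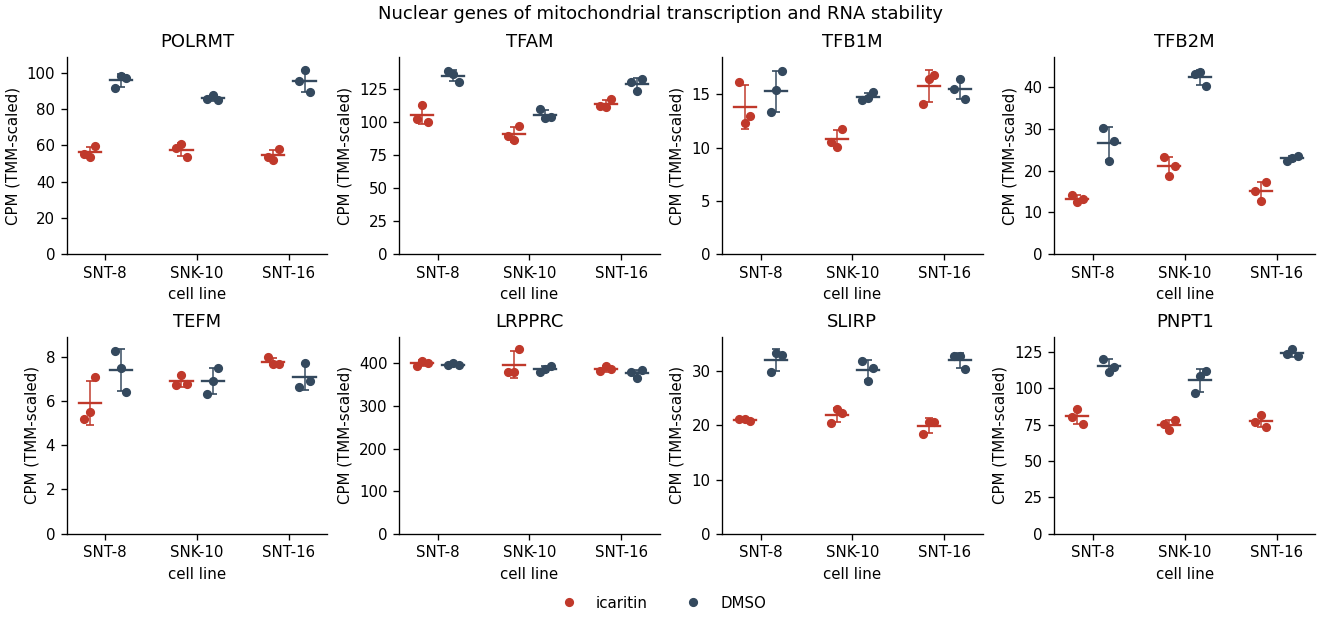
TMM-scaled CPM of the 8 nuclear genes, a panel each, with lines on the horizontal axis, icaritin in red and DMSO in dark blue; points are libraries, with mean and SD of 3. Icaritin libraries lie below DMSO libraries in each line for POLRMT, TFAM, TFB2M, SLIRP and PNPT1, while LRPPRC stays between 367 and 433 CPM.

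Per length, SLIRP and LRPPRC were the most abundant of the 8 in DMSO libraries of each line, and TEFM and TFB1M the least. In SNT-8 with DMSO, SLIRP had 81.1 ± 5.15 FPKM and LRPPRC 58.4 ± 0.480 FPKM (SD, n = 3 each). TFAM at 24.9 ± 0.751, POLRMT at 24.7 ± 0.980 and PNPT1 at 24.4 ± 0.868 FPKM came next and lay within their spread of each other. TFB2M followed with 14.6 ± 2.17 FPKM, and TEFM (5.43 ± 0.678 FPKM) and TFB1M (5.34 ± 0.690 FPKM) were lowest and within their spread. With icaritin, SLIRP at 54.9 ± 0.475 FPKM stood below LRPPRC at 60.9 ± 0.900 FPKM in SNT-8, the reverse of their order in DMSO. SLIRP also stood below LRPPRC with icaritin in SNK-10, with 53.8 FPKM for SLIRP and 56.6 FPKM for LRPPRC, within their spread, and in SNT-16, with 52.9 FPKM for SLIRP and 59.8 FPKM for LRPPRC.

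Promoters are shown for a pair of genes that fell and a gene that did not pass the threshold, since NRF1 and the GABP complex, known activators of nuclear genes for mitochondrial proteins, bind short motifs near such starts. The windows are RefSeq sequences of the GRCh38.p14 build, 250 bases before and 50 after the annotated start, and capitals mark motif matches on either strand. POLRMT (chr19:633488-633787, minus strand) and TFB2M (chr1:246566212-246566511, minus strand) fell in all 3 lines; LRPPRC (chr2:43995940-43996239, minus strand) did not pass the threshold.
POLRMT: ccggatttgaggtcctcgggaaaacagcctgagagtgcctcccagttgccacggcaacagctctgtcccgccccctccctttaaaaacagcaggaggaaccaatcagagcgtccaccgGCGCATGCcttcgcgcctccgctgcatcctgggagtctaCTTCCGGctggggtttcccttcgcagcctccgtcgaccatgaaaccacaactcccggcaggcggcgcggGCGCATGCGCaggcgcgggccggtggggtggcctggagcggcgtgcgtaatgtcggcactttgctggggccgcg
TFB2M: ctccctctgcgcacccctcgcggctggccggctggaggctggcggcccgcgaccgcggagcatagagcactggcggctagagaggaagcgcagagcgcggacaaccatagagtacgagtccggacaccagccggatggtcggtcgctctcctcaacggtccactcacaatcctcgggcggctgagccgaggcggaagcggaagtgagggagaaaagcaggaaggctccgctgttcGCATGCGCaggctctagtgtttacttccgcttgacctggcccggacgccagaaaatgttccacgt
LRPPRC: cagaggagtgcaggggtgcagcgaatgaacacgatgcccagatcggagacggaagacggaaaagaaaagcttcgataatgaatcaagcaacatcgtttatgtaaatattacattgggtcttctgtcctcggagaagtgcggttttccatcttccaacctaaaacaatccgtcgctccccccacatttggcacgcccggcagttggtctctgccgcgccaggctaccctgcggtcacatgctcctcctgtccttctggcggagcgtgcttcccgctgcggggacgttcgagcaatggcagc
The letters GCATGCGC, the core of the NRF1 motif, occurred in the windows of 3 of the 8 genes, POLRMT, TFB1M and TFB2M, and in 3.05% of 35116 RefSeq promoter windows of that length. In POLRMT 2 of its 3 matches overlap on opposite strands. CCGGAAG, a core of the GABP motif, occurred in 4 of the 8, POLRMT, TFB1M, TEFM and SLIRP, and in 10.3% of all windows. The E-box CACGTG occurred in 0 of the 8 and in 7.26% of all windows. Genes with a fall in all 3 lines stood on both sides of this split, since TFAM and PNPT1 held no exact match. Only these exact letters were searched, so variants of the motifs were not counted and a gene without a match may still hold a site. The motif letters were chosen with the sequences in view, and a match is not evidence of binding.

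Other nuclear genes of mitochondrial RNA metabolism were counted in 5 lists, 64 genes of which 63 were tested. These lists too were chosen with earlier results of these data known. After icaritin 34 fell and 4 rose in SNT-8, 39 fell and 7 rose in SNK-10, and 32 fell and 6 rose in SNT-16, with 25, 17 and 25 not past the threshold. That is 54.0%, 61.9% and 50.8% of the 63 as lower and 6.35%, 11.1% and 9.52% as higher. Over all genes tested, 25.0%, 24.0% and 20.8% passed as lower and 24.0%, 24.4% and 21.2% as higher in the same order of lines. Medians of the log2 fold change were -0.24, -0.31 and -0.21 in SNT-8, SNK-10 and SNT-16, beside 0.02, 0.01 and 0.02 over all genes. In all 3 lines 26 of the 63 passed as lower and 3 as higher, where 2065 and 1877 of all 14396 genes did (14.3% as lower). LACTB2, of the 63, was nearly absent from the SNT lines, with DMSO levels higher by 9.35 on the log2 scale in SNK-10. It is counted as a fall in SNK-10 (log2 fold change -0.51) and as not past the threshold in SNT-8 and SNT-16.

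Among 12 genes of mitochondrial DNA maintenance and transcription, 3 fell in SNT-8, 6 in SNK-10 and 5 in SNT-16, and 0, 1 and 2 rose. In SNT-8 the share that fell, 25.0%, was that of all genes tested. TWNK, the helicase of the mitochondrial replication fork, had log2 fold changes of -1.20 (SE 0.0932, adjusted p = 7.75e-14) in SNT-8, -1.10 (SE 0.0911, adjusted p = 4.04e-13) in SNK-10 and -1.26 (SE 0.0932, adjusted p = 2.74e-14) in SNT-16, all by edgeR. POLG, the catalytic subunit of the replicative polymerase, had 0.06, -0.11 and -0.0058 in the same order, of which the SNK-10 value passed the threshold (adjusted p = 0.0420).

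Among 18 genes of mitochondrial RNA processing and decay, 12 fell in SNT-8, 12 in SNK-10 and 9 in SNT-16, and 1 rose in each. The falls in SNK-10 include LACTB2, which was nearly absent from the SNT lines. TRMT10C, a subunit of the RNase P that frees tRNAs and with them the rRNA ends, had log2 fold changes of -1.20 in SNT-8, -1.17 in SNK-10 and -0.84 in SNT-16 (highest adjusted p = 7.53e-10). The other RNase P subunit genes were PRORP, which fell in each line (-0.54, -0.37 and -0.36), and HSD17B10, which passed the threshold in SNT-8 (-0.17, -0.11 and -0.09). ELAC2, the RNase Z that cuts the other tRNA end, fell in each line (-0.65, -0.59 and -0.59), and so did FASTKD5 (-0.74, -0.95 and -0.67), needed for cuts without a flanking tRNA. FASTKD2, which binds the 16S rRNA, had -0.53, -0.62 and -0.53. The gene that rose was SUPV3L1, the helicase partner of PNPT1, with 0.20, 0.40 and 0.26 in SNT-8, SNK-10 and SNT-16 (adjusted p = 0.00605, 1.63e-06 and 0.000623), so the genes of the 2 degradosome subunits went opposite ways.

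Among 23 genes of rRNA modification and mitoribosome assembly, 12 fell in SNT-8, 15 in SNK-10 and 12 in SNT-16, and 1, 3 and 2 rose. MRM1, a ribose methyltransferase of the 16S rRNA, had log2 fold changes of -1.19, -1.18 and -0.95 in SNT-8, SNK-10 and SNT-16 (highest adjusted p = 1.44e-09), and MRM3, another, had -0.71, -0.63 and -0.54. MRM2, the remaining enzyme of that group, had -0.11, -0.33 and -0.16 and passed the threshold in SNK-10 (adjusted p = 0.000569). For the 12S rRNA, the methyltransferase gene METTL15 had 0.05, 0.11 and 0.06 and passed in no line (lowest adjusted p = 0.284), and NSUN4 had -0.13, -0.31 and -0.12 and passed in SNK-10 (adjusted p = 0.00149). The chaperone gene ERAL1 of the 12S rRNA had -0.26, 0.07 and -0.09 and passed in SNT-8 (adjusted p = 0.000947). NOA1, a GTPase of the mitoribosome, rose with 0.20, 0.29 and 0.22 (highest adjusted p = 0.00733).

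Among 7 tested nuclear regulators of mitochondrial genes, 6 fell in SNT-8, 5 in SNK-10 and 6 in SNT-16, and 1, 1 and 0 rose. PPRC1, a coactivator of the PGC-1 family, had log2 fold changes of -0.82, -0.996 and -0.91 in SNT-8, SNK-10 and SNT-16 (highest adjusted p = 8.37e-17). NRF1 had -0.47, -0.31 and -0.60, and GABPA, the DNA-binding subunit of GABP, had -0.87, -0.40 and -0.73, all past the threshold. GABPB1, the other GABP subunit on the list, rose in SNT-8 (0.29) and SNK-10 (0.33) and had 0.03 in SNT-16. Of 3 proteases, LONP1, which degrades TFAM that is not bound to DNA, rose with 0.91, 0.78 and 0.73 (SE 0.0467, 0.0474 and 0.0468, highest adjusted p = 6.11e-16 by edgeR). The ClpP protease gene CLPP fell in SNT-8 and SNK-10 (-0.24 in each) and had -0.16 in SNT-16.

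**Figure D5:**
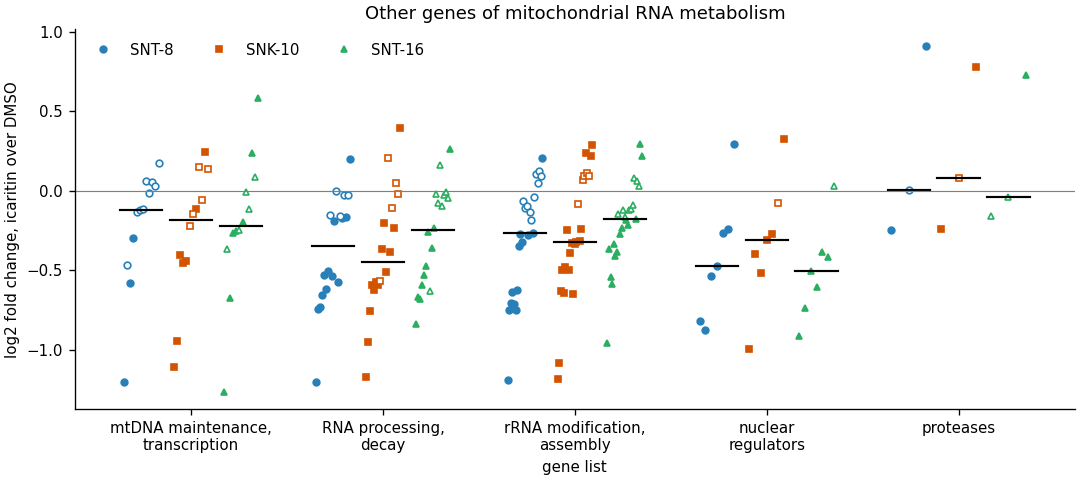
Log2 fold change of icaritin over DMSO for the 63 tested genes of the 5 lists on the horizontal axis, circles for SNT-8, squares for SNK-10 and triangles for SNT-16; filled points passed the threshold and black bars are medians. Most filled points lie below 0, with LONP1 at 0.91, 0.78 and 0.73 the highest.

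Lines differed in rRNA without icaritin. Among DMSO libraries, RNR1 averaged 1386 ± 23.3 CPM in SNK-10, 936 ± 66.6 CPM in SNT-8 and 720.0 ± 28.7 CPM in SNT-16 (SD, n = 3 each), and RNR2 averaged 15518 ± 354, 12881 ± 749.8 and 8513 ± 319 CPM in the same order. SNK-10 minus the mean of the SNT lines, RNR1 was higher by 0.75 on the log2 scale (SE 0.0815, adjusted p = 1.47e-06), RNR2 by 0.57 (SE 0.0755, adjusted p = 8.48e-06) and TFB2M by 0.78 (SE 0.0792, adjusted p = 3.20e-11) by edgeR. TFAM was lower in SNK-10 (-0.32, SE 0.0474, adjusted p = 1.86e-07), as were PNPT1 (-0.18, SE 0.0498, adjusted p = 0.00161) and POLRMT (-0.15, SE 0.0510, adjusted p = 0.0104). The 3 that were higher and the 3 that were lower stand beside 31.8% and 29.6% of all genes, and 61.4% passed in either direction. PNPT1 missed the threshold when SNK-10 DMSO replicate 1 was left out (adjusted p = 0.0590, edgeR). The line with most rRNA after DMSO had the most TFB2M and the least TFAM.

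Between the SNT lines with DMSO, SNT-8 held more of both rRNAs than SNT-16. RNR2 was higher by 0.60 on the log2 scale (SE 0.0892, adjusted p = 0.000354) and RNR1 by 0.38 (SE 0.0971, adjusted p = 0.0197) in edgeR's test, while 13.2% of all genes passed in either direction 7.34% as higher and 5.89% as lower. RNR1 missed it without SNT-8 DMSO replicate 2 (adjusted p = 0.0724), SNT-16 DMSO replicate 2 (adjusted p = 0.0756) or SNT-16 DMSO replicate 3 (adjusted p = 0.0522). Of the 8 nuclear genes 0 passed, and TFB2M came closest (difference 0.21, SE 0.0997, adjusted p = 0.171 by edgeR). Over all 10 genes, 3 had an unadjusted p under 0.05, and DESeq2 and limma called 2 each, both as higher.

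The icaritin response of each nuclear gene was also compared between lines. Against the mean response of the SNT lines, 0 of the 8 passed in SNK-10 by edgeR's quasi-likelihood test, where 14.1% of all genes did (8.22% as higher and 5.90% as lower); 2 had an unadjusted p under 0.05, DESeq2 gave 0 and limma on FPKM gave 1. Closest by edgeR was POLRMT, whose fall was the smaller in SNK-10 (difference 0.21, SE 0.0762, adjusted p = 0.0610). TFB1M came next (difference -0.40, SE 0.147, adjusted p = 0.0641 by edgeR). It fell in SNK-10 and passed the threshold in neither SNT line. Side by side and untested, the log2 rise of RNR1 was 1.00 greater in SNK-10 than the SNT mean, and that of RNR2 was 0.81 greater. Between SNT-8 and SNT-16, 0 of the 8 responses differed, with 3 at an unadjusted p under 0.05 and 0 in DESeq2 and limma, where 0.438% of all genes passed, 0.174% as higher and 0.264% as lower (lowest adjusted p = 0.236, edgeR). The rRNA responses of SNT-8 and SNT-16 were 0.08 and 0.10 lower in SNT-8 on the log2 scale for RNR1 and RNR2. A p that misses the threshold does not show that the lines responded alike.

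Within groups, libraries with more RNR2 than their group mean tended to have more RNR1 and more TFAM. Neither relation passed once 2 libraries were left out. Deviations of log2 CPM from the group mean were correlated over the 18 libraries, with exact two-sided permutation within groups (46656 arrangements) and adjustment over 9 relations. RNR1 had r = 0.923 (permutation p = 0.00392, adjusted 0.0177) and rho = 0.829 (p = 0.00285 by exact permutation, adjusted 0.0128). TFAM had r = 0.841 (permutation p = 0.00214, adjusted 0.0177) and rho = 0.843 (p = 0.00171 by exact permutation, adjusted 0.0128). POLRMT had r = -0.646 (permutation p = 0.0114, adjusted 0.0341) and rho = -0.620 (p = 0.0178 by exact permutation, adjusted 0.0533). The other 6 genes did not pass, with r between -0.332 for TFB1M and 0.472 for LRPPRC (lowest adjusted permutation p = 0.135). The 2 libraries farthest from the median RNR2 deviation were SNT-8 icaritin replicates 2 and 3. Without them only replicate 1 of that group was left, which equals its own group mean and so adds nothing to r. In that check r was 0.801 for RNR1, 0.799 for TFAM and -0.700 for POLRMT. None of them passed over these 16 libraries, with 7776 arrangements (lowest adjusted exact permutation p = 0.0972), although the coefficients kept their signs and that of POLRMT was no smaller. Over genes averaging at least 50 counts, chi-square per gene between 2 replicates lay between 1.59 and 2.46 in DMSO groups. SNT-8 icaritin replicate 2 had 5.96 and 8.18 against replicates 1 and 3, and those 2 had 3.07 between them. SNK-10 icaritin replicate 3 had 3.41 and 4.13 against replicates 1 and 2. The part of such library-wide differences in these relations was not tested.

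Outside the 10 genes, those whose level across the 6 groups was most like RNR1 were found by the root mean square difference of centred log2 CPM over the 6 group means, among 9322 genes of at least 10 CPM. MTRNR2L3, the nuclear copy, came first at 0.160 log2 units, followed by RELL1 (0.222), the glucocorticoid receptor gene NR3C1 (0.257), ATXN1 (0.270) and the transcription factor gene NFIL3 (0.273). RNR1 and RNR2 differed by 0.171 on this measure. For RNR2 the nearest were MTRNR2L3 (0.174), NFIL3 (0.254), the cytokine receptor gene IL6ST (0.255), NDRG1 (0.262) and SDCBP (0.272). Counts of MTRNR2L3 may hold RNR2 reads, and the part of such reads in its first place was not tested. The 10 genes themselves were left out of the candidates, so this ranking does not place the 8 nuclear genes.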

How the data were processed

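Per the labels' protocols, RNA was extracted with Trizol and 1 ug of total RNA went into MGIEasy libraries; per the submitters' processing notes, Bowtie2 and HISAT were used, with build and counter not given in the sources used here. Per the file headers, the authors deposited an expected count (estimated fragments of a gene) and an FPKM (fragments scaled by length and depth) for each gene, keyed by NCBI Gene ID. Genes not listed in a library were taken as 0. Of 21662 IDs, 21559 were named by ID from a RefSeq table and 21 through a transcript accession; the rest kept their ID.

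Expected counts were rounded and fitted with edgeR 4.0.16 (R 4.3.3): filterByExpr (minimum count 10, minimum total 15), TMM scaling, a robust quasi-likelihood fit with 6 group means on all 18 libraries, two-sided tests and Benjamini-Hochberg adjustment over 14396 genes. SE is the absolute log2 fold change over the square root of F. Within-group relations used exact permutation in Python 3.11.15. Alternatives were other scalings, no filter, DESeq2 1.42.0, limma 3.58.1 on log2(FPKM + 0.1), fits on fewer lines, a replicate block, RNR2 summed with its copies, and leaving out each library.

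Members and lists were chosen with earlier results of these data known. Named genes were the 10 members, the 5 genes most like each rRNA, and list genes called in all 3 lines. Of these list genes, the 5 largest falls and up to 5 rises of at least 10 CPM were named. Only 3 rose in all 3 lines. Other list genes were named after values were seen, LACTB2 for its near absence from the SNT lines and the rest for their known role. RNR2, TFAM, LRPPRC and PNPT1 had non-whole expected counts (at least 0.005 from a whole number) in 18 of 18 libraries, as estimates that split reads among transcripts or genes can give. Depth of 9526431 to 10100453 counts limits the precision for TEFM and TFB1M most.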

Additional observations from a re-analysis of the deposited data

How the results depend on the processing

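Of 624 alternative values for the icaritin response of the members within a line, 622 kept their side of the threshold, the other 2 were TEFM in SNT-8, and 0 values past the threshold changed sign. Counts of nuclear genes that fell were 5, 6 and 5 in SNT-8, SNK-10 and SNT-16 under every setting that kept all libraries. The number of nuclear genes whose response differed in SNK-10 was 0, and 0 to 2 when a library was left out. It was 1, POLRMT, with DESeq2 size factors and with no filter. It was also 1, TFB1M, with total counts, with total counts without RNR1 and RNR2 and with limma on FPKM. Where a fit without a library gave any, the gene was POLRMT, TFB1M or both. The cause was not tested. Members that differed between SNT-8 and SNT-16 with DMSO numbered 2, and 1 to 2 when a library was left out. The within-group relations of RNR2 past the threshold numbered 3, 2 with total counts without RNR1 and RNR2, and 0 without 2 libraries. Replicate numbers did not pair the samples (r between -0.13 and 0.04 in 9 pairs, 0 over 0.1); with them as a block the counts were 5, 6 and 5 nuclear genes, 6 and 2 members between lines, and 0 for the response differences. The median log2 fold change of all genes within a line was at most 0.07 with total counts and 0.08 with total counts without the rRNAs. Fits on the compared lines alone were not run for SNK-10 against both SNT lines, since all libraries enter. The rRNA differences kept their direction under each scaling.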
